A study of Mus musculus with 12 samples.

Results

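The genes of cholesterol synthesis, sensing and transport were followed as 31 genes, taken as the rows of the deposited gene table whose symbol was on a list of names. All 31 passed the filter on low counts, out of 18703 genes tested and 29862 genes in the table. They form 4 modules: 8 mevalonate enzymes, 11 post-squalene enzymes (which include the enzyme that makes squalene), 8 genes of SREBP sensing and uptake, and 4 genes of LXR efflux. RNA was sequenced from immortalized mandibular fibrochondrocytes, cells of the condylar cartilage of the jaw joint, which came from C57BL/6J pups aged 10 to 14 days. The study asked what the ectodomain of NG2/CSPG4, a transmembrane proteoglycan that binds type VI collagen, does to these cells with and without serum. The control line (genotype wild type) is 1 clone made immortal with hTERT, the subunit of telomerase that carries its catalytic activity, from a vector that also carries GFP. The NG2|EDmut line was derived from that clone with CRISPR/Cas9 and lacks part of the NG2/CSPG4 ectodomain, cut short where type VI collagen binds. Each line was grown in AMEM with heat-inactivated FBS, called serum here, or in Opti-MEM without FBS, called starvation, and both media held L-Glut, Pen and Plasmocin. The basal medium and the serum thus changed together, and their parts in a difference cannot be told apart. Each of the 4 groups has 3 replicates, 12 libraries in all. Since each line goes back to a single clone, a difference between the lines cannot be told apart from one between clones, and the p-values measure the spread between these libraries.

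Cells make cholesterol from acetyl-CoA through mevalonate, farnesyl diphosphate and squalene, and each step has its own enzyme. When the membrane of the endoplasmic reticulum is poor in sterol, SCAP carries the SREBP transcription factors to the Golgi, where they are cut and released to switch on the genes of synthesis and uptake, whereas INSIG proteins hold the complex back when sterol is plentiful. When sterol derivatives build up, the nuclear receptors LXRα and LXRβ switch on genes of efflux such as Abca1 and the ubiquitin ligase gene Mylip, whose product removes lipoprotein receptors from the cell surface.

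The promoter windows of 6 members are shown because they carry the letters that these factors are known to bind and belong to genes that went different ways in the libraries. They come from RefSeq (GRCm38.p6), run 5′ to 3′ on the strand of the gene, and hold 250 bases before and 50 bases after the start. Of the 31 members, 25 had a window in the RefSeq table, and a gene with several windows was counted once. Capitals mark the matches to 3 motifs, each searched on both strands. These were TCACNCCA, a core of sterol regulatory elements; CCAAT, the box of NF-Y, a factor that works with SREBP; and a direct repeat of the LXR half-sites NGGTNA and NGGTCA with 4 bases between them. TCACNCCA lies within the longer form TCACNCCAC, which was also searched, and its last letters can open a CCAAT. The letters of the direct repeat were loosened after the windows of Abca1 and Srebf1 had been read, so its count is a description of a chosen motif.
Hmgcs1 (chr13:119690101-119690400, plus strand): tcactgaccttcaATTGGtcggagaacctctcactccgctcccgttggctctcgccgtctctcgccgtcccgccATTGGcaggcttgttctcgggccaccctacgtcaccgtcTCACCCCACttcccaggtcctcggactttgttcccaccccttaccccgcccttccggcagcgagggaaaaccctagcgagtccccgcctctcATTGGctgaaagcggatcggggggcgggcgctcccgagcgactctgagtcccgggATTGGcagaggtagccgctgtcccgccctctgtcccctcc
Msmo1 (chr8:64733529-64733828, minus strand): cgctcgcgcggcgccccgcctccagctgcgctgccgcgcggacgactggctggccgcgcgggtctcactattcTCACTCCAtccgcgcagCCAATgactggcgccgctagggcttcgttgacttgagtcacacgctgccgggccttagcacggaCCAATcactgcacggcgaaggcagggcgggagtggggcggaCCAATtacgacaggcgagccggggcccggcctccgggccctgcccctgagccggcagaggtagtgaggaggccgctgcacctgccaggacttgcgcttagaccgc
Srebf2 (chr15:82147019-82147318, plus strand): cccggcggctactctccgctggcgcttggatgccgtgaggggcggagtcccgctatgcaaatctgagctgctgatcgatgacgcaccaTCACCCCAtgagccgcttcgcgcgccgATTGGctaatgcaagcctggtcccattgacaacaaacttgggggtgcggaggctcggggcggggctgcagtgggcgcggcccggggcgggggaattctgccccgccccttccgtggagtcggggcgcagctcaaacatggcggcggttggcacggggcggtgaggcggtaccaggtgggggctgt
Ggps1 (chr13:14063439-14063738, minus strand): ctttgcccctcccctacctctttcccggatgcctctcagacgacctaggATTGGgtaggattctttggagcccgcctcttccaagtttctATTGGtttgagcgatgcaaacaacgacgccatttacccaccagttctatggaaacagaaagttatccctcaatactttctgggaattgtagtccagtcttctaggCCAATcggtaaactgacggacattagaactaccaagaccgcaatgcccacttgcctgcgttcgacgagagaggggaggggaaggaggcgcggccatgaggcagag
Abca1 (chr4:53159846-53160145, minus strand): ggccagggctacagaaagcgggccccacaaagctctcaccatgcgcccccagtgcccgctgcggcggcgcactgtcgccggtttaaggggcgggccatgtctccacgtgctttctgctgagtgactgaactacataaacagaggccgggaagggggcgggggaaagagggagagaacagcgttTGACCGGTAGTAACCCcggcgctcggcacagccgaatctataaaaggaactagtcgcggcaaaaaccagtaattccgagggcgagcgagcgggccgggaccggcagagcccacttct
Srebf1, 1 of its 3 windows (chr11:60210422-60210721, minus strand): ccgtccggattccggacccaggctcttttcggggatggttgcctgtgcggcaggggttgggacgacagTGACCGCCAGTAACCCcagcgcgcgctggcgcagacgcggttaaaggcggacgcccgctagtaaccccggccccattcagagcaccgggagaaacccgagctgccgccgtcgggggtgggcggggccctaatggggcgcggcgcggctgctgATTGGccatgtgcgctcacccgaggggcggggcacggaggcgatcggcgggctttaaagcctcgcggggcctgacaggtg

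The sterol element core TCACNCCA was found in 3 of the 25 members (12%), Hmgcs1, Msmo1 and Srebf2, against 4.97% of 27025 genes with a window. The longer form TCACNCCAC was in Hmgcs1 alone among the members and in 1.44% of all genes. CCAAT was in 20 of the 25 members (80%) against 41.1% of all genes. It was in 6 of 7 mevalonate enzymes, 9 of 9 post-squalene enzymes, 5 of 6 sensing and uptake genes and 0 of 3 LXR efflux genes with a window. The direct repeat was in Abca1 and Srebf1, 2 of the 25 members (8%), and in 0.226% of all genes. Its letters were loosened after these 2 windows had been read, so the shares are no test of the members. A match is a run of letters and not a shown binding site, and no library here measured binding.

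The libraries held 60277881 to 77172479 estimated counts, and ribosomal RNA genes took 0.490% to 4.82% of them. All 6 fibroblast and fibrocartilage markers were at 1 CPM or more on average in each group, with a summed level of 42888 to 57125 CPM. Of 5 chondrocyte markers, Sox9 and Col2a1 were present in each group, whereas Acan was at or below a mean of 1.05 CPM and Matn1 and Snorc were below 1 CPM in all 4 groups. Summed levels of the chondrocyte list were 60.3 to 76.5 CPM in control and 29.7 to 50.1 CPM in NG2|EDmut libraries. The macrophage list summed to 4.68 to 8.001 CPM in starved control cells and to 2.46 to 4.14 CPM in the other groups, with Ptprc at a mean of 0.0476 CPM or less. The endothelial list stayed at or below 0.900 CPM and 3 adipocyte markers at or below 0.117 CPM, and the summed epithelial list overlapped between the groups at 1.73 to 16.5 CPM. Single markers moved with the comparisons in edgeR, where 21 of the 28 markers were tested. In serum Thy1 and Krt14 were higher and Col3a1, Sox9 and Col2a1 lower in NG2|EDmut cells, and under starvation Krt14 was higher and Col3a1, Vim, Pdgfra, Sox9 and Matn1 lower. The epithelial keratin gene Krt14 was at 0 to 0.365 CPM in control and 0.444 to 2.18 CPM in NG2|EDmut libraries, with log2 fold changes of 2.50 (adjusted p = 0.04; 0.0675 without control serum replicate 1) and 4.08 (adjusted p = 0.00565). The collagen gene Col3a1 stood at -2.18 (adjusted p = 5.8e-05) and -1.08 (adjusted p = 0.00415). With starvation Sox9, Matn1 and Tek rose and Col2a1 fell in control cells, and Sox9 and Col3a1 (1.06, adjusted p = 0.0469) rose in NG2|EDmut cells. The interaction passed for Col2a1 alone of the markers, at 1.52 (adjusted p = 0.0484). The part that these markers have in the results below was not tested. Here CPM are estimated counts scaled to the effective library size after TMM normalization. Control serum replicate 1 stood apart from the other 2 serum controls in the genes described here. It lay below both others for 22 members, above both for 9 and between them for 0, with no share over all genes given. The 31 members took 0.211% of its estimated counts and 0.421% and 0.393% of those of control serum replicates 2 and 3, against 0.167% to 0.180% in starved control libraries. On a scale from 0, the mean of control serum replicates 2 and 3, to 1, the mean of the starved controls, its median position was 0.809 over 18 members and 0.727 over the 2483 genes that differ 2-fold or more between those 2 sets. The results are therefore given with and without it.

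The synthesis genes did not have one order of the lines. Of the 19 synthesis enzymes of the first 2 modules, 18 were lower in NG2|EDmut than in control cells in serum, and Ggps1 was higher. Under starvation 14 of the 19 were higher in NG2|EDmut cells and 5 did not pass. With starvation 16 fell in control cells, while Tm7sf2 rose and Ggps1 and Nsdhl did not pass. In NG2|EDmut cells 13 rose with starvation, and Acat2, Pmvk, Idi1, Ggps1, Nsdhl and Ebp did not pass. Over all genes tested, 16.2% were called lower and 15.4% higher between the lines in serum, and 17.9% higher under starvation. With starvation 10.8% fell and 9.45% rose in control cells, and 0.957% rose in NG2|EDmut cells. The members took 0.139% to 0.166% of the estimated counts in NG2|EDmut cells in serum and 0.313% to 0.334% in starved NG2|EDmut cells. In 12 of the 31 members the order of group means was control serum, NG2|EDmut starvation, control starvation and NG2|EDmut serum, from high to low, and in 14 without control serum replicate 1. No share of all genes with this order is given. The first 2 groups in that order were not apart in all libraries, since control serum replicate 1 was below the 3 starved NG2|EDmut libraries in 11 of the 12 members, all but Ebp.

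**Figure D1:**
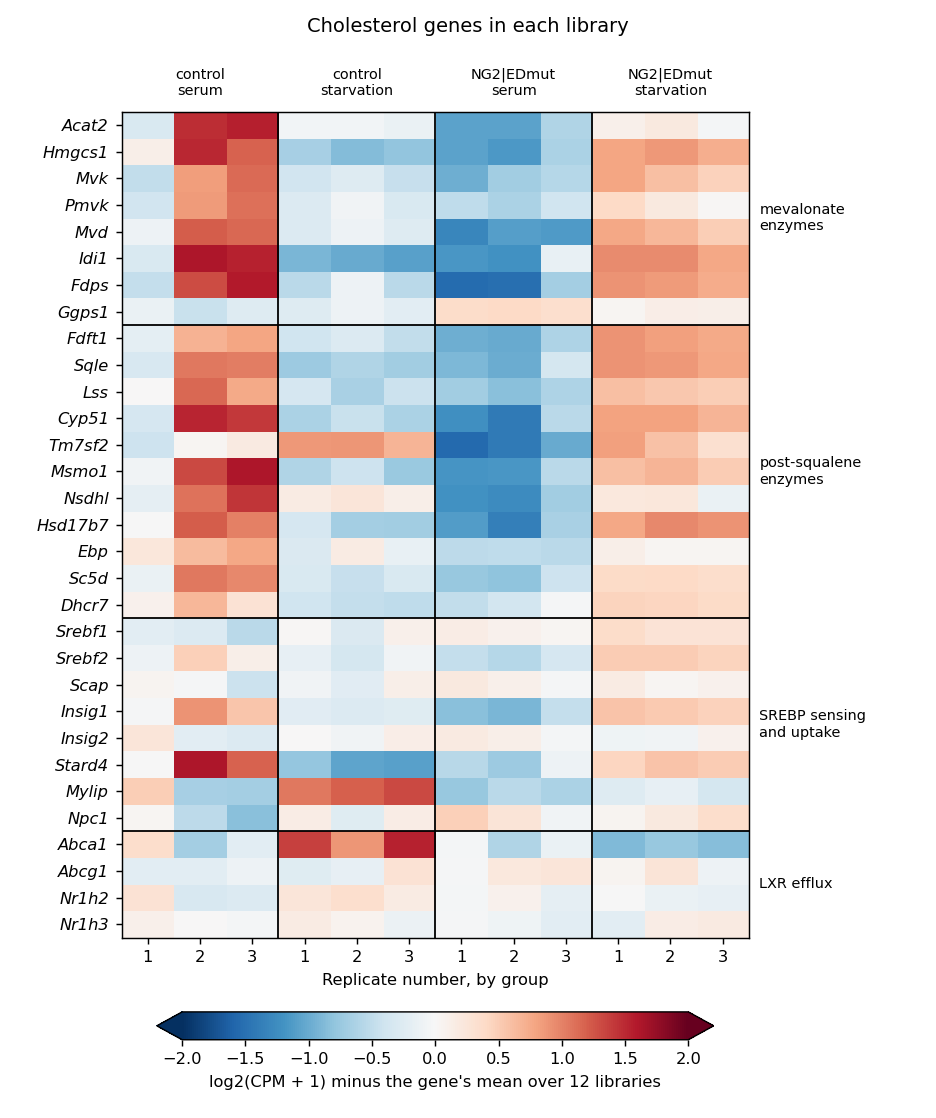
Heat map of the 31 members (rows, in 4 modules) in the 12 libraries (columns, 3 replicates in each of 4 groups). Colour is log2(CPM + 1) minus the mean of the gene over the 12 libraries. Control serum replicate 1 is paler than replicates 2 and 3 in most synthesis genes. In most synthesis genes the NG2|EDmut columns turn from blue in serum to red under starvation, whereas Ggps1 and Abca1, among others, go down.

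**Figure D2:**
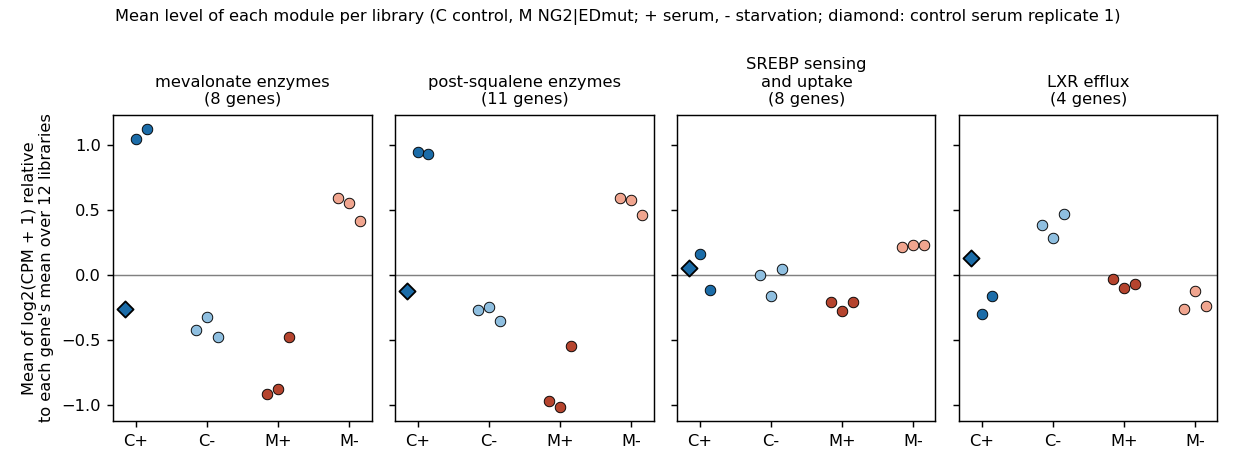
Mean level of each module in each library, as the mean over its genes of log2(CPM + 1) relative to the gene's own mean. The post-squalene module was at -0.12 in control serum replicate 1, at 0.95 and 0.93 in replicates 2 and 3, at -1.01 to -0.54 in NG2|EDmut cells in serum and at 0.46 to 0.60 in starved NG2|EDmut cells, and LXR efflux was highest in the starved controls (0.29 to 0.47).

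In serum, 21 members were lower and 3 were higher in NG2|EDmut than in control cells, and 7 did not pass the test. All 7 mevalonate enzymes other than Ggps1 and all 11 post-squalene enzymes were lower. Among the sensing and uptake genes Srebf2, Insig1 and Stard4 were lower and Srebf1 and Npc1 higher, and of the LXR efflux genes 0 of 4 passed. Over all genes tested, 16.2% were called lower and 15.4% higher (edgeR's quasi-likelihood test, Benjamini-Hochberg adjusted p under 0.05), and the median log2 fold change was -1.36 over the members and -0.03 over all genes. Without control serum replicate 1 the members stood at 21 lower and 4 higher, against 20.2% and 19.5% of all genes, with a median of -1.63. The 4th was Insig2, at a log2 fold change of 0.35. The 21 lower calls held in each of 12 fits that left out 1 library, as did that of Ggps1, but those of Srebf1 and Npc1 did not.

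Under starvation, 18 members were higher and 2 were lower in NG2|EDmut than in control cells, and 11 did not pass. Higher were 6 of 8 mevalonate enzymes, 8 of 11 post-squalene enzymes, and Srebf1, Srebf2, Insig1 and Stard4. Lower were Mylip and Abca1, both known targets of LXR, whereas Srebf1, also an LXR target, was among the higher genes. Abcg1 of the LXR efflux module did not pass. The background was 17.9% of genes called higher and 20.1% lower, and the medians were 0.68 over the members and -0.02 over all genes. Without control serum replicate 1, a library that is in neither group of this comparison but enters the shared estimate of the spread, 19 were higher and 3 lower, against 21.7% and 23.2% of all genes, and Pmvk and Nr1h2 were the added calls. Calls held in all 12 fits that left out 1 library for 14 members, 12 higher and 2 lower, while the count of calls ranged from 14 to 22. Altogether 16 members were lower in serum and higher under starvation in NG2|EDmut cells: Hmgcs1, Mvk, Mvd, Idi1, Fdps, Fdft1, Sqle, Lss, Cyp51, Msmo1, Hsd17b7, Sc5d, Dhcr7, Srebf2, Insig1 and Stard4. For this pair of calls no share over all genes is given. The comparisons in serum and under starvation share no library.

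**Figure D3:**
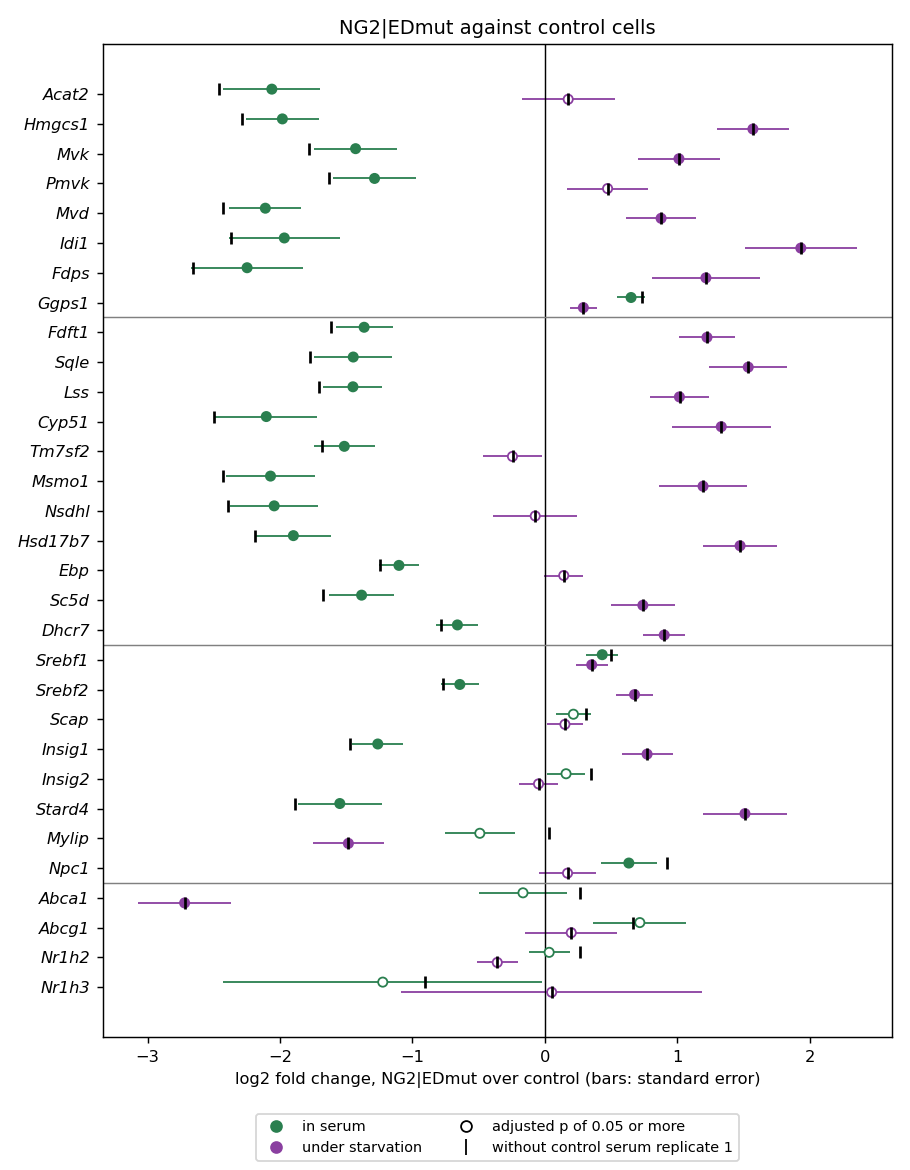
Log2 fold change of NG2|EDmut over control cells for the 31 members (rows) in serum (green) and under starvation (purple), with standard errors as bars; open circles did not pass an adjusted p of 0.05 and ticks give the value without control serum replicate 1. Most synthesis genes lie left of 0 in serum and right of 0 under starvation, Ggps1 and Srebf1 lie right of 0 in both, and Abca1 lies at -0.16 and -2.72.

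In control cells 18 members fell with starvation, 3 rose and 10 did not pass, against 10.8% and 9.45% of all genes. The fall took in 7 of 8 mevalonate enzymes, 9 of 11 post-squalene enzymes, Insig1 and Stard4, and the 3 that rose were Tm7sf2, Mylip and Abca1. The median was -0.85 over the members and 0.04 over all genes. Both control serum replicates 1 and 2 moved these counts. Without replicate 1, 20 fell and 6 rose, against 15.8% and 17.3% of all genes, with medians of -1.12 and 0.10. Nsdhl and Srebf2 then joined the falls, and Srebf1, Npc1 and Nr1h2 the rises. Without replicate 2, 11 fell. Calls held in all 12 such fits for 13 members, 11 that fell and 2 that rose. In a fit of the 2 control groups alone, 6 members were called, all of them falls, and no share of all genes called is given for it. The rises of Tm7sf2, Mylip and Abca1 did not pass in that fit.

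In NG2|EDmut cells the response ran the other way: 15 members rose with starvation and 0 fell in edgeR, against 0.957% and 1.1% of all genes. At an unadjusted p under 0.05, 21 rose and 2 fell, for which no share over all genes is given. DESeq2 and limma also called 0 lower, with 19 higher in DESeq2 and 9 to 17 in limma. A fit of edgeR to the 2 NG2|EDmut groups alone called 2 lower, but also more members higher than the fit of all 12 libraries. For these alternatives no share over all genes is given. The 15 that rose with all 12 libraries were 4 mevalonate enzymes, 9 of 11 post-squalene enzymes, Srebf2 and Insig1. The median was 1.04 over the members and -0.01 over all genes. The call is thin for many of them. The count fell to 6 without NG2|EDmut serum replicate 2, to 7 without NG2|EDmut serum replicate 1 or NG2|EDmut starvation replicate 1 or 2, to 8 without NG2|EDmut starvation replicate 3 and to 9 without control starvation replicate 1 or 3. It rose to 22 without control serum replicate 1, against 3.11% of all genes higher and 4.43% lower, with 0 members lower. That library is in neither group of this comparison but enters the shared estimate of the spread. Fdft1, Hsd17b7, Insig1, Mvd, Srebf2 and Tm7sf2 were called in all 12 fits.

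The difference between these 2 responses was tested as the interaction of line and starvation. It was above 0 for 21 members and below 0 for 1, Abca1, against 2.03% and 2.36% of all genes. All 11 post-squalene enzymes, 7 of 8 mevalonate enzymes, Srebf2, Insig1 and Stard4 were among the 21, and the median was 1.97 over the members and -0.03 over all genes. Without control serum replicate 1 there were 21 above and 5 below 0, against 10.3% and 9.94% of all genes, and Ggps1, Mylip, Npc1 and Nr1h2 joined Abca1. Calls held in all 12 fits for 18 members. Calls of Acat2, Pmvk, Nsdhl and Tm7sf2 did not.

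**Figure D4:**
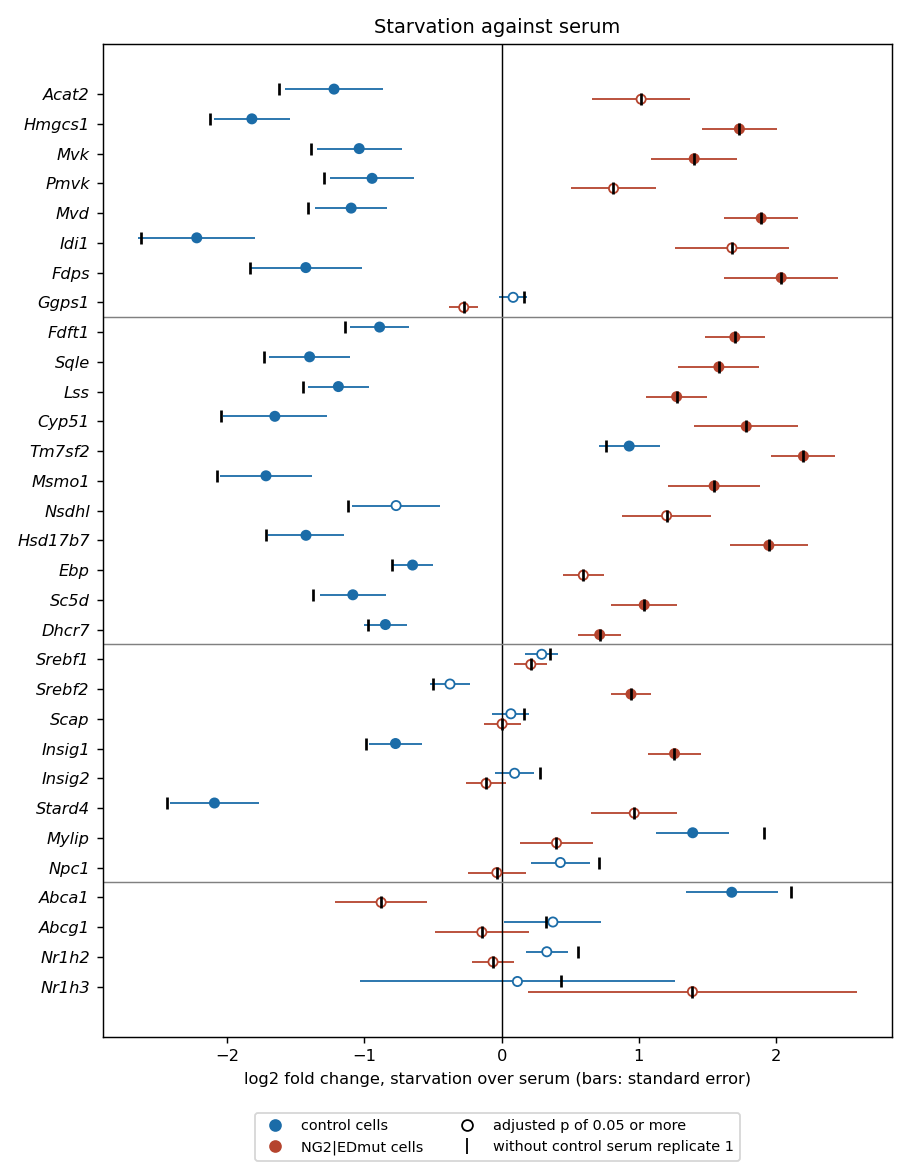
Log2 fold change of starvation over serum for the 31 members in control (blue) and NG2|EDmut cells (red), with standard errors as bars; open circles did not pass and ticks give the value without control serum replicate 1. Most synthesis genes lie left of 0 in control cells and right of 0 in NG2|EDmut cells, whereas Tm7sf2 lies right of 0 in both (0.93 and 2.20).

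The mevalonate enzymes carry acetyl units to farnesyl and geranylgeranyl diphosphate. Acat2 (ENSMUSG00000023832, chr17:12942890-12960747) joins acetyl-CoA units at the head of the route. Acat2 was at 48.2, 169 and 179 CPM in control serum replicates 1 to 3, at 57.96, 57.5 and 54.5 CPM in starved control cells, at 27.9, 27.9 and 39.2 CPM in NG2|EDmut cells in serum and at 64.8, 69.1 and 58.4 CPM in starved NG2|EDmut cells. Control serum replicate 1 was below each starved control library, replicates 2 and 3 were far above them, and the NG2|EDmut serum libraries were the lowest. Hmgcs1 (ENSMUSG00000093930, chr13:119690379-119708260), the synthase of HMG-CoA whose promoter holds the longer sterol element, had the largest level per length of the members in control serum, 84.5 FPKM. For Hmgcs1 the serum controls were at 220.0, 577 and 459 CPM, the starved controls at 127, 111 and 117 CPM, NG2|EDmut cells in serum at 95.9, 91.3 and 131 CPM and starved NG2|EDmut cells at 353, 369 and 336 CPM. No range of one line met that of the other in either condition, with control cells above in serum and NG2|EDmut cells above under starvation. The log2 fold change between the lines was -1.98 (standard error 0.28, adjusted p = 0.00023) in serum and 1.57 (standard error 0.27, adjusted p = 0.000714) under starvation, from edgeR. The interaction was 3.55 (standard error 0.39, adjusted p = 0.000564), and 3.86 without control serum replicate 1.

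Mvk (ENSMUSG00000041939, chr5:114444269-114460591), the kinase of mevalonate, followed at a lower level. Mvk replicates were at 23.8, 60.9 and 75.5 CPM in control cells with serum and 25.7, 27.98 and 24.3 CPM without, and at 16.7, 20.3 and 22.4 CPM in NG2|EDmut cells with serum and 59.3, 51.4 and 46.7 CPM without. Control serum replicate 1 was again at the level of starved controls. Mvd (ENSMUSG00000006517, chr8:122433601-122443422) decarboxylates mevalonate diphosphate to isopentenyl diphosphate. Mvd was at 32.2, 80.7 and 77.4 CPM in control serum replicates 1 to 3, at 28.3, 32.1 and 28.6 CPM in starved control cells, at 13.3, 15.5 and 15.3 CPM in NG2|EDmut cells in serum and at 59.4, 55.5 and 48.7 CPM in starved NG2|EDmut cells. All 3 NG2|EDmut serum libraries were below all 9 others, and the log2 fold change in serum was -2.11 (standard error 0.27, adjusted p = 0.000125) in edgeR. Pmvk, the kinase between them, ranged from 5.76 to 21.7 CPM over the 12 libraries, was lower in NG2|EDmut cells in serum (-1.29) and did not pass under starvation (0.47, adjusted p = 0.251).

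Idi1 (ENSMUSG00000058258, chr13:8885501-8892451) isomerizes isopentenyl diphosphate. For Idi1 the serum controls were at 46.3, 178 and 169 CPM, the starved controls at 29.8, 27.9 and 26.5 CPM, NG2|EDmut cells in serum at 24.9, 24.2 and 51.5 CPM and starved NG2|EDmut cells at 111, 111 and 99.1 CPM. NG2|EDmut serum replicate 3 stood above the other 2 of its group and above control serum replicate 1, so the serum groups overlapped. Its interaction, 3.90 (standard error 0.60, adjusted p = 0.00385), was the largest of the members in edgeR. Fdps (ENSMUSG00000059743, chr3:89093588-89101959) makes farnesyl diphosphate, where the routes to sterols and to prenylated proteins part. Fdps replicates were at 78.6, 271 and 331 CPM in control cells with serum and 75.2, 103 and 75.2 CPM without, and at 37.2, 37.9 and 68.1 CPM in NG2|EDmut cells with serum and 204, 199 and 185 CPM without. NG2|EDmut cells were below control cells in serum, at -2.25 (standard error 0.42, adjusted p = 0.00176) on the log2 scale, the largest such fall of the members. Under starvation the value was 1.22 (standard error 0.41, adjusted p = 0.0332), and this call was lost without any one of 5 libraries (adjusted p 0.000626 to 0.0889 over the 12 fits; control starvation replicates 1 and 3 and each NG2|EDmut starvation library).

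Ggps1 (ENSMUSG00000021302, chr13:14050659-14063488) makes geranylgeranyl diphosphate, which feeds protein prenylation and not sterol, and was the mevalonate enzyme that went its own way. Ggps1 was at 38.6, 30.7 and 35.1 CPM in control serum replicates 1 to 3, at 35.1, 39.3 and 36.3 CPM in starved control cells, at 54.5, 56.1 and 53.5 CPM in NG2|EDmut cells in serum and at 43.4, 46.3 and 45.9 CPM in starved NG2|EDmut cells. The NG2|EDmut libraries were above the control libraries in both conditions without overlap. It was higher by 0.65 (standard error 0.10, adjusted p = 0.000631) on the log2 scale in serum and 0.29 (standard error 0.10, adjusted p = 0.0448) under starvation, and leaving out 1 library at a time took the second to adjusted p of 0.0142 to 0.13. Its window holds 3 CCAAT matches and no TCACNCCA.

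The post-squalene module begins with Fdft1 (ENSMUSG00000021273, chr14:63145150-63179578), which makes squalene from farnesyl diphosphate. For Fdft1 the serum controls were at 92.4, 171 and 184 CPM, the starved controls at 79.7, 87.1 and 74.6 CPM, NG2|EDmut cells in serum at 52.9, 52.04 and 68.7 CPM and starved NG2|EDmut cells at 198, 188 and 179 CPM. NG2|EDmut cells were below the control range in serum and above that of starved controls. The starvation response was -0.89 (standard error 0.21, adjusted p = 0.0126) in control and 1.70 (standard error 0.22, adjusted p = 0.00227) in NG2|EDmut cells. The fall in control cells missed the threshold without control serum replicate 2 (-0.78, adjusted p = 0.0538; 2.62e-05 to 0.0825 over the alternatives). Fdft1 shares 774 bases with Ctsb, a more abundant gene on the opposite strand. Ctsb was at 125 FPKM in control and 65.0 FPKM in NG2|EDmut cells in serum and at 225 and 90.8 FPKM under starvation (group means), so it was lower in NG2|EDmut cells in both conditions while Fdft1 was higher under starvation. Whether the counting used strand is not given, so Fdft1 is uncertain to that extent.

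Sqle (ENSMUSG00000022351, chr15:59315077-59331192), squalene epoxidase, is a slow step of the route. Sqle replicates were at 105, 275 and 267 CPM in control cells with serum and 78.8, 85.9 and 80.4 CPM without, and at 69.7, 65.3 and 102 CPM in NG2|EDmut cells with serum and 246, 239 and 225 CPM without. NG2|EDmut serum replicate 3 came close to control serum replicate 1, but the groups did not overlap. The log2 fold change between the lines was -1.45 (standard error 0.29, adjusted p = 0.00299) in serum and 1.54 (standard error 0.29, adjusted p = 0.00144) under starvation. Lss (ENSMUSG00000033105, chr10:76531588-76557138) closes epoxidized squalene into lanosterol, the first sterol. Lss was at 83.6, 187 and 142 CPM in control serum replicates 1 to 3, at 65.8, 53.02 and 61.9 CPM in starved control cells, at 50.8, 46.3 and 54.03 CPM in NG2|EDmut cells in serum and at 127, 122 and 117 CPM in starved NG2|EDmut cells. Both line comparisons were without overlap, at log2 fold changes of -1.45 and 1.02. Cyp51 (ENSMUSG00000001467, chr5:4081145-4104746) removes a methyl group from lanosterol. For Cyp51 the serum controls were at 140.0, 511 and 473 CPM, the starved controls at 114, 130.1 and 114 CPM, NG2|EDmut cells in serum at 75.1, 65.6 and 121 CPM and starved NG2|EDmut cells at 309.7, 308 and 283 CPM. It had the widest gap between control serum replicate 1 and the other serum controls in CPM within this module, and the log2 fold change in serum moved from -2.10 to -2.50 without that library.

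**Figure D5:**
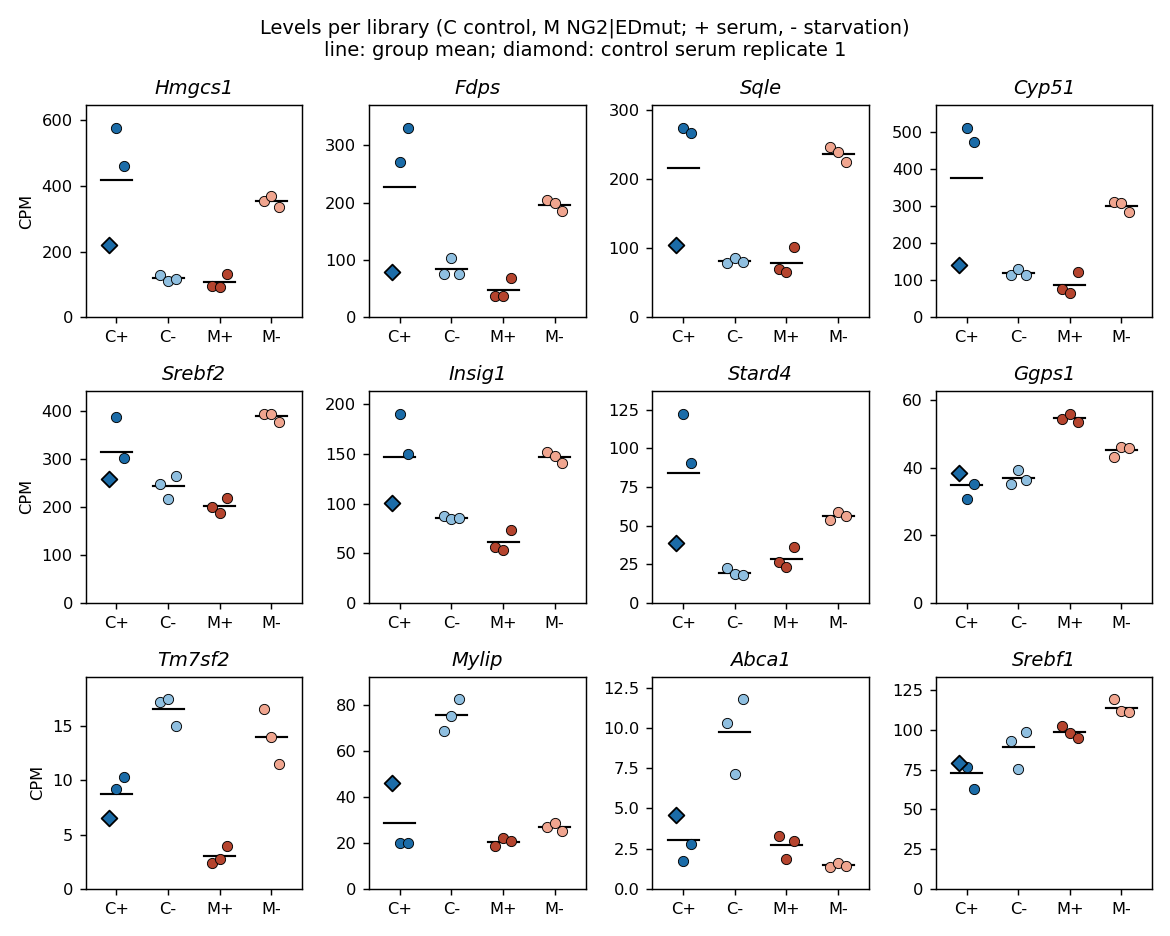
CPM per library (y axis, from 0) of 12 members in the 4 groups; points are replicates, lines are group means and the diamond is control serum replicate 1. Hmgcs1, Fdps, Sqle, Cyp51, Srebf2, Insig1 and Stard4 are high in serum control replicates 2 and 3 and in starved NG2|EDmut cells, whereas Mylip and Abca1 are highest in starved control cells and Ggps1 in NG2|EDmut cells in serum.

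Msmo1 (ENSMUSG00000031604, chr8:64718139-64733792), a sterol methyl oxidase with a sterol element core in its window, ranged widely. Msmo1 replicates were at 81.9, 216 and 266 CPM in control cells with serum and 56.3, 64.2 and 50.7 CPM without, and at 37.5, 37.7 and 58.7 CPM in NG2|EDmut cells with serum and 131, 139 and 122 CPM without. Its interaction was 3.27 (standard error 0.47, adjusted p = 0.00295). Hsd17b7 (ENSMUSG00000026675, chr1:169949535-169969241) reduces the keto group left after demethylation. Hsd17b7 was at 36.6, 87.01 and 74.97 CPM in control serum replicates 1 to 3, at 28.97, 22.5 and 22.4 CPM in starved control cells, at 16.3, 13.7 and 23.2 CPM in NG2|EDmut cells in serum and at 63.6, 72.4 and 69.4 CPM in starved NG2|EDmut cells. The starved NG2|EDmut libraries were between control serum replicate 1 and the other 2 serum controls, and its rise with starvation in that line, 1.95 (standard error 0.28, adjusted p = 0.00421), held in all 12 fits that left out a library. Nsdhl, which works with Msmo1, was lower in NG2|EDmut cells in serum (-2.04) and at -0.07 between the starved lines (adjusted p = 0.88). It ranged from 9.84 to 69.3 CPM over the libraries.

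The late enzymes differed from each other under starvation. Ebp (ENSMUSG00000031168, chrX:8185329-8193512) shifts a double bond in the sterol ring. For Ebp the serum controls were at 74.7, 100.1 and 110.0 CPM, the starved controls at 52.3, 71.9 and 57.4 CPM, NG2|EDmut cells in serum at 44.1, 44.8 and 43.8 CPM and starved NG2|EDmut cells at 69.1, 65.5 and 65.9 CPM. The starved groups overlapped, with a difference of 0.14 (adjusted p = 0.484), whereas in serum the NG2|EDmut libraries were lower, at -1.10 (standard error 0.15, adjusted p = 0.000192). Sc5d (ENSMUSG00000032018, chr9:42251595-42264256), the lathosterol desaturase, was higher in starved NG2|EDmut cells. Sc5d replicates were at 73.7, 168 and 158 CPM in control cells with serum and 65.2, 58.4 and 65.1 CPM without, and at 47.4, 45.5 and 60.4 CPM in NG2|EDmut cells with serum and 106, 106 and 103 CPM without. That difference, 0.74 (standard error 0.24, adjusted p = 0.0288), was lost when any 1 of the 6 starved libraries was left out (adjusted p up to 0.0838). Dhcr7 (ENSMUSG00000058454, chr7:143823145-143848410) reduces 7-dehydrocholesterol to cholesterol. Dhcr7 was at 41.8, 63.1 and 48.4 CPM in control serum replicates 1 to 3, at 29.7, 28.1 and 27.5 CPM in starved control cells, at 27.8, 30.3 and 38.9 CPM in NG2|EDmut cells in serum and at 53.9, 53.7 and 51.8 CPM in starved NG2|EDmut cells. It had the smallest fall in serum of this module, -0.66 (standard error 0.16, adjusted p = 0.00784), but a difference of 0.90 (standard error 0.16, adjusted p = 0.000789) under starvation.

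Tm7sf2 (ENSMUSG00000024799, chr19:6062821-6067850), a sterol reductase, was the enzyme of this module that rose with starvation in both lines. For Tm7sf2 the serum controls were at 6.52, 9.24 and 10.3 CPM, the starved controls at 17.2, 17.5 and 14.996 CPM, NG2|EDmut cells in serum at 2.38, 2.76 and 3.99 CPM and starved NG2|EDmut cells at 16.5, 13.9 and 11.5 CPM. Both starved groups were above all serum libraries, and the starved lines overlapped. The response was 0.93 (standard error 0.22, adjusted p = 0.0128) in control cells, which missed the threshold without control starvation replicate 1 (adjusted p = 0.0504), and 2.20 (standard error 0.23, adjusted p = 0.000716) in NG2|EDmut cells. The interaction, 1.27 (standard error 0.32, adjusted p = 0.0442), was lost in 10 of 12 fits that left out a library, at adjusted p of 0.00358 to 0.122. Tm7sf2 shares 9 bases with Vps51 on the same strand.

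Among the sensing genes, Srebf2 (ENSMUSG00000022463, chr15:82147181-82205379), which encodes the SREBP that mainly drives cholesterol synthesis, moved with the enzymes but by less. Srebf2 replicates were at 258, 387 and 302 CPM in control cells with serum and 249, 217 and 264 CPM without, and at 199.8, 188 and 219.7 CPM in NG2|EDmut cells with serum and 394, 395 and 378 CPM without. Starved NG2|EDmut cells were above starved controls, and NG2|EDmut cells in serum were below serum controls. The log2 fold change between the lines was -0.64 (standard error 0.14, adjusted p = 0.00523) in serum and 0.68 (standard error 0.14, adjusted p = 0.00271) under starvation, with an interaction of 1.32 (standard error 0.20, adjusted p = 0.00396). In control cells the response to starvation was -0.38 (adjusted p = 0.0859) and reached -0.50 without control serum replicate 1 (adjusted p = 0.0076; range over the alternatives 0.0076 to 0.343).

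Srebf1 (ENSMUSG00000020538, chr11:60199089-60222581), which encodes the SREBP better known for fatty acid synthesis and is also an LXR target, did not follow Srebf2. Srebf1 was at 79.1, 76.4 and 62.9 CPM in control serum replicates 1 to 3, at 93.2, 75.5 and 98.8 CPM in starved control cells, at 102, 98.3 and 94.6 CPM in NG2|EDmut cells in serum and at 119, 112 and 111 CPM in starved NG2|EDmut cells. NG2|EDmut cells were higher in both conditions, by 0.43 (standard error 0.12, adjusted p = 0.0175) in serum and 0.35 (standard error 0.12, adjusted p = 0.0362) under starvation, and the interaction was -0.08 (adjusted p = 0.861). Both differences are small, and single libraries took their adjusted p to 0.00733 to 0.0639 and 0.0183 to 0.114. They end without control serum replicate 3 or NG2|EDmut serum replicate 1 or 2 in serum, and without control starvation replicate 2, NG2|EDmut serum replicate 1 or 2 or any NG2|EDmut starvation library under starvation. Genes overlap it on the opposite strand (Rai1, 109 bases) and on the same strand. The escort gene Scap was at 58.8 to 91.0 CPM with line differences of 0.22 and 0.15, neither past the test.

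Insig1 (ENSMUSG00000045294, chr5:28071363-28078662), the retention protein gene that SREBP itself switches on, moved like the enzymes. For Insig1 the serum controls were at 100.3, 191 and 150.0 CPM, the starved controls at 87.6, 84.3 and 85.99 CPM, NG2|EDmut cells in serum at 56.8, 53.8 and 73.2 CPM and starved NG2|EDmut cells at 152, 148 and 141 CPM. The lines were apart in both conditions, at -1.26 (standard error 0.19, adjusted p = 0.000458) in serum and 0.77 (standard error 0.19, adjusted p = 0.00725) under starvation. Insig2, the other retention protein gene, was at 26.8 to 38.7 CPM, with 0.16 in serum (adjusted p = 0.43) and -0.05 under starvation (adjusted p = 0.825). Stard4 (ENSMUSG00000024378, chr18:33199355-33213862) encodes a carrier of cholesterol between membranes and is a known SREBP target. Stard4 replicates were at 38.9, 123 and 90.4 CPM in control cells with serum and 22.5, 18.5 and 18.03 CPM without, and at 26.4, 23.4 and 36.3 CPM in NG2|EDmut cells with serum and 53.5, 58.9 and 56.02 CPM without. Its fall in starved control cells, -2.09 (standard error 0.32, adjusted p = 0.00151), was the largest of the members after that of Idi1, and no starved control library reached any library of another group. Starved NG2|EDmut cells were higher than starved controls by 1.51 (standard error 0.32, adjusted p = 0.00267).

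Mylip and Npc1 stood on the other side. Mylip (ENSMUSG00000038175, chr13:45389742-45412022) encodes the ligase that marks lipoprotein receptors for breakdown. Mylip was at 46.3, 20.2 and 19.9 CPM in control serum replicates 1 to 3, at 68.8, 75.4 and 82.5 CPM in starved control cells, at 18.8, 21.9 and 20.7 CPM in NG2|EDmut cells in serum and at 26.9, 28.8 and 25.3 CPM in starved NG2|EDmut cells. Starved controls were above all other libraries, and control serum replicate 1 was between them and the rest. Mylip rose in starved control cells by 1.39 (standard error 0.27, adjusted p = 0.00428), and was lower in starved NG2|EDmut than in starved control cells, -1.48 (standard error 0.27, adjusted p = 0.000964). The interaction of -0.99 did not pass (adjusted p = 0.171) and was -1.52 without control serum replicate 1 (adjusted p = 3.15e-05; range over the alternatives 3.15e-05 to 0.331). Npc1 (ENSMUSG00000024413, chr18:12189692-12236400) encodes the exporter of cholesterol from lysosomes. For Npc1 the serum controls were at 87.5, 58.7 and 47.3 CPM, the starved controls at 94.4, 71.8 and 94.2 CPM, NG2|EDmut cells in serum at 118, 102 and 80.99 CPM and starved NG2|EDmut cells at 88.1, 97.01 and 108 CPM. In serum NG2|EDmut cells were higher by 0.64 (standard error 0.21, adjusted p = 0.0401), although NG2|EDmut serum replicate 3 was below control serum replicate 1, and the call failed in 7 of the 12 fits that left out a library (adjusted p 0.00151 to 0.151). Those were the fits without control serum replicate 2 or 3, NG2|EDmut serum replicate 1 or 2, or any starved NG2|EDmut library.

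Of the LXR efflux genes, Abca1 (ENSMUSG00000015243, chr4:53030787-53159895), the pump that loads cholesterol onto apolipoprotein, was the one that changed. Abca1 replicates were at 4.61, 1.74 and 2.77 CPM in control cells with serum and 10.3, 7.12 and 11.8 CPM without, and at 3.27, 1.89 and 2.98 CPM in NG2|EDmut cells with serum and 1.38, 1.599 and 1.44 CPM without. Starved controls were above all other libraries and starved NG2|EDmut cells below all others, although the level per length was low, 0.851 FPKM in starved controls and 0.134 FPKM in starved NG2|EDmut cells. Abca1 rose with starvation in control cells by 1.68 (standard error 0.33, adjusted p = 0.00515) and was lower in starved NG2|EDmut than in starved control cells, at -2.72 (standard error 0.35, adjusted p = 8.1e-05), the largest line difference of the members under starvation. In serum the lines were at -0.16 (adjusted p = 0.741). The interaction was -2.56 (standard error 0.47, adjusted p = 0.0113) and -2.99 without control serum replicate 1. Its window holds no CCAAT, and it holds the direct repeat, whose letters were loosened after this window had been read.

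Nr1h2 (ENSMUSG00000060601, chr7:44549616-44553949), which encodes LXRβ, passed the test in no comparison with all 12 libraries. Nr1h2 was at 74.8, 48.3 and 50.4 CPM in control serum replicates 1 to 3, at 72.4, 77.1 and 68.4 CPM in starved control cells, at 59.02, 64.6 and 53.8 CPM in NG2|EDmut cells in serum and at 60.5, 55.5 and 54.02 CPM in starved NG2|EDmut cells. Its groups overlapped in serum, and starved NG2|EDmut libraries were below starved controls, with -0.36 (adjusted p = 0.088), and -0.36 without control serum replicate 1 (adjusted p = 0.00712; range over the alternatives 0.00712 to 0.242). Abcg1 (ENSMUSG00000024030, chr17:31057675-31117988), a pump that passes sterol to lipoprotein particles, was near the floor of the data. For Abcg1 the serum controls were at 0.602, 0.612 and 0.7301 CPM, the starved controls at 0.5703, 0.671 and 1.28 CPM, NG2|EDmut cells in serum at 0.833, 1.16 and 1.204 CPM and starved NG2|EDmut cells at 0.933, 1.22 and 0.741 CPM. In serum the NG2|EDmut libraries were above the controls without overlap, at a difference of 0.72 that did not pass (adjusted p = 0.143). The other groups compared overlapped, and no comparison passed. Nr1h3 (ENSMUSG00000002108, chr2:91184061-91202834), which encodes LXRα, was lower still. Nr1h3 replicates were at 0.241, 0.161 and 0.116 CPM in control cells with serum and 0.292, 0.212 and 0.0587 CPM without, and at 0.129, 0.0894 and 0 CPM in NG2|EDmut cells with serum and 0, 0.282 and 0.299 CPM without. At this level a difference was not detectable.

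Another 48 genes of the pathway, from lists of SREBP processing, isoprenoid branches, sterol transport and storage, and oxysterols with further LXR targets, were all tested. In serum 9 were higher and 14 lower in NG2|EDmut cells, against 15.4% and 16.2% of all genes, and under starvation likewise 9 and 14, against 17.9% and 20.1%. Their medians were -0.08 and -0.01. With starvation 5 rose and 5 fell in control cells, against 9.45% and 10.8% of all genes, and 1 rose in NG2|EDmut cells, against 0.957%. For the interaction 0 of 48 passed in edgeR, against 2.03% of all genes above 0 and 2.36% below 0. At an unadjusted p under 0.05 there were 12, for which no share over all genes is given. In DESeq2 4 passed, and in limma 0 to 2. These counts depend on control serum replicate 1. Without it the interaction was above 0 for 7 and below 0 for 9 of the 48, against 10.3% and 9.94% of all genes, and with starvation 17 rose and 6 fell in control cells, against 17.3% and 15.8%. The line comparison in serum then stood at 12 higher and 16 lower, against 19.5% and 20.2% of all genes. Under starvation it stood at 14 higher and 15 lower, against 21.7% and 23.2%. Osbpl9, an oxysterol-binding protein gene, averaged 65.01 ± 13.1 CPM in serum controls against 224 ± 2.14 CPM in NG2|EDmut cells in serum, and 81.1 ± 2.94 against 198 ± 7.72 CPM under starvation (SD, n = 3 per group). It was higher in NG2|EDmut cells in both conditions, by 1.78 (standard error 0.13, adjusted p = 2.09e-06) and 1.28 (standard error 0.13, adjusted p = 1.06e-05) in edgeR. Osbpl2 of the same family was higher too, by 0.72 and 0.67. Cyp7b1, a hydroxylase that clears oxysterols, was at 3.51 to 8.96 CPM in serum controls and 0.255 to 0.617 CPM in NG2|EDmut cells in serum, at 7.04 to 10.7 and 0.2598 to 0.578 CPM under starvation, and lower at log2 fold changes of -3.73 (standard error 0.43, adjusted p = 5.98e-05) and -4.33 (standard error 0.44, adjusted p = 1.33e-05). Npc2, which hands lysosomal cholesterol to NPC1, averaged 517 ± 59.01 CPM in starved controls against 178 ± 7.79 CPM in starved NG2|EDmut libraries (SD, n = 3 per group). It was lower in NG2|EDmut cells in both conditions (-0.87 and -1.54), unlike Npc1. Erlin1, which takes part in sterol-regulated protein breakdown, was at 17.5 to 19.7 CPM in starved control and 37.98 to 42.7 CPM in starved NG2|EDmut libraries, a difference of 1.11 (standard error 0.13, adjusted p = 5.58e-05).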

How the data were processed

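Poly(A) RNA from the 12 libraries was made into TruSeq stranded libraries and read from both ends on an Illumina NovaSeq. The authors mapped reads with HISAT2 and estimated expression with StringTie, and the submitters' processing notes also name FastQC and edgeR. Tool versions, genome build, strand setting and starvation time were not stated in the sources read here. Gene starts match GRCm38. The deposited estimated counts were made by the authors from StringTie coverage and are whole numbers (0 values had to be rounded), so 1 unit is not 1 read. The deposited FPKM values rest on that coverage too. Columns that hold the authors' own fold changes and p-values were not used.

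Estimated counts were tested with edgeR 4.0.16 in R 4.3.3 (filterByExpr, TMM, quasi-likelihood fit, 4 group means fitted to the 12 libraries, with residual degrees of freedom of 8 and a prior of 3.91). P-values were adjusted by Benjamini-Hochberg over all 18703 genes, with a threshold of 0.05. Alternatives were DESeq2 1.42.0, RLE size factors, 2 other filters, the replicate number as a block, fits of the compared groups alone, a log2 fold cut of 1, limma 3.58.1 on log2(FPKM + 1) and log2(FPKM + 0.1), and leaving out each library. The scripts were tested on simulated data. Values in every library are given for up to 4 members of a module with the smallest adjusted p, and for every member whose call differed from most of its module or between the line comparisons (27 members). Of the other genes of the pathway, up to 4 per line comparison with the smallest adjusted p are named. Members, lists and tests were chosen with earlier results of these data known. Some genes of the pathway are not reported here.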

Additional observations from a re-analysis of the deposited data

Results flagged for a closer look

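For 22 of the 31 members the response to starvation differed between the lines by a test of the difference itself, the interaction of line and starvation in edgeR's quasi-likelihood test. Values are the log2 response in NG2|EDmut cells minus that in control cells. Among mevalonate enzymes the difference was 2.24 for Acat2, 3.55 for Hmgcs1, 2.44 for Mvk, 1.76 for Pmvk, 2.99 for Mvd, 3.90 for Idi1 and 3.47 for Fdps. Post-squalene enzymes stood at 2.59 for Fdft1, 2.98 for Sqle, 2.47 for Lss, 3.44 for Cyp51, 1.27 for Tm7sf2, 3.27 for Msmo1, 1.97 for Nsdhl, 3.37 for Hsd17b7, 1.24 for Ebp, 2.12 for Sc5d and 1.56 for Dhcr7. In the sensing and uptake module it was 1.32 for Srebf2, 2.03 for Insig1 and 3.06 for Stard4. Abca1 was the exception in sign, at -2.56. Calls of Acat2, Pmvk, Nsdhl and Tm7sf2 were lost in most fits that left out 1 library. For Tm7sf2 both lines rose, so the difference is one of size, and for the other 20 above 0 the 2 fitted responses had opposite signs. No share of all genes with opposite signs is given.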

How the results depend on the processing

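Under the alternatives 3039 single-gene results kept their side of the threshold, 258 lost a call, 43 gained one and 0 reversed. A result was counted as reversed only if it was called in the main fit or in the alternative. Changes of sign without a call, as for Abca1 between the lines in serum, are not counted there. The replicate number as a block gave 24, 18, 18, 12 and 18 calls among the members in the 5 comparisons, in the order of the report, against 24, 20, 21, 15 and 22 without it. Same-numbered libraries had correlations of deviations from -0.328 to 0.303 over 18 pairs, with 4 over 0.1. The highest was between replicates 3 of the control serum and NG2|EDmut serum groups. In 9 of 36 cases a library correlated best with its own number. With 3 libraries per group these values cannot settle whether same-numbered libraries were handled together, which was not tested.

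Leaving out each library in turn gave 22 to 25 calls between the lines in serum (1 to 4 higher, 21 to 21 lower) and 14 to 22 under starvation (12 to 19 higher, 2 to 3 lower). For starvation in control cells it gave 14 to 26 (2 to 6 higher, 11 to 20 lower), for NG2|EDmut cells 6 to 22 (6 to 22 higher, 0 to 0 lower) and for the interaction 18 to 26 (17 to 21 above 0, 1 to 5 below). A log2 fold change of at least 1 left 0 members higher in serum, and 13 under starvation with 11 higher, by its construction. With only the groups compared, 1 was higher in serum, 6 were called in control cells under starvation (0 rose, 6 fell) and 25 in NG2|EDmut cells (23 rose, 2 fell). For these fits of the compared groups alone no share over all genes is given. In limma-trend on filtered log2(FPKM + 1) and log2(FPKM + 0.1), 1 member was lower under starvation and 0 had an interaction below 0, and with no filter on log2(FPKM + 1) 9 members rose in NG2|EDmut cells. The cause was not tested.

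The limits are 1 clone per line, a change of medium together with serum, 3 libraries per group of which 1 serum control lies near the starved controls, and a strand setting that is not given. Sequencing of whole genes shows RNA levels and not sterol content, protein or enzyme activity. Genes near 1 CPM or lower, such as Abcg1 and Nr1h3, are limited by depth.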

Other observations

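The deposited annotation gives other groupings of the same genes, which share members with the list above and are no independent evidence. Over all genes tested, 16.2% were called lower and 15.4% higher in serum, and 20.1% lower and 17.9% higher under starvation, and the term counts are read against these shares. Of 16 tested genes under the KEGG term Steroid biosynthesis, 11 of them members, 13 were lower and 1 higher in NG2|EDmut cells in serum, and 1 was lower and 10 higher under starvation. Terpenoid backbone biosynthesis held 21 tested genes, 8 of them members, with 10 lower and 2 higher in serum, and 4 lower and 9 higher under starvation. The Gene Ontology term cholesterol biosynthetic process held 19 tested genes, 15 of them members, with 17 lower and 0 higher in serum, and 2 lower and 11 higher under starvation.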
